A study of Arabidopsis thaliana with 6 samples.

Results

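The peaks described here are those of Myc-tagged PIF1 that lie around the 5 centromeres of Arabidopsis thaliana. A peak was a member where its summit lay within 1.5 Mb of a centromere midpoint, placed at 15.1 Mb on chromosome 1, 3.6 Mb on chromosome 2, 13.7 Mb on chromosome 3, 3.95 Mb on chromosome 4 and 11.7 Mb on chromosome 5 (TAIR10). The rule used position alone and took 1207 of 25032 peaks, 438 of 4578 in list 1, 423 of 12776 in list 2 and 346 of 7678 in list 3. All other nuclear peaks are called arm peaks.

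Seedlings were 3 days old, grown in darkness at 21 °C after 3 h of white light, and carried either an overexpressed Myc-tagged PIF1 or, as wild type, no tag. Chromatin of whole seedlings from both genotypes was precipitated with an antibody against Myc. Each of the 3 libraries per genotype pooled 4 immunoprecipitations from 2 biological replicates, and each list set 1 PIF1 library against its same-numbered wild-type library. The overexpressed protein is not at its native level, and the precipitate averages over all cells of the seedling.

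The pericentromere is the repeat-rich chromatin that flanks a centromere. In Arabidopsis it is packed as heterochromatin, with dense DNA methylation, many transposon remnants and few active genes. PIF1 is a basic helix-loop-helix factor that represses light responses in the dark and is known to bind G-box motifs near genes of light and hormone pathways. In a genome assembly, sequence repeated many times is partly collapsed or missing in these regions, so a read from a repeat cannot always be placed.

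The PIF1 libraries held 14209334, 5825479 and 5721184 tags (mapped reads) after removal of excess duplicates, in the order of lists 1, 2 and 3. List 1 came from the library with the most tags after that filter and held the fewest peaks. Per the file headers, the redundant rate was 13%, 70% and 66% for PIF1 and 24%, 61% and 15% for wild type, and up to 3 or 4 tags per position were kept. The part of duplication in the differences between lists was not tested. Tags are unscaled counts, so tags per kb were compared within a list only. The FDR of the authors' peak caller was 5% or less for 0, 11 (2.6%) and 0 members of lists 1, 2 and 3, against 0.00%, 10.6% and 0.0651% of all peaks of these lists. It stood at 100% for all 438 members and all 4140 arm peaks of list 1, and for 96.5% of members and 81.8% of arm peaks of list 3.

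Peaks were sparser around the centromeres than on the arms in all 3 lists. List 1 had 29.2 peaks per Mb around the centromeres and 39.8 on the arms. In list 2 the values were 28.2 and 118.6, and in list 3 they were 23.1 and 70.4. The 3 lists thus differed little around the centromeres (26.8 ± 3.29 peaks per Mb, SD, n = 3) and widely on the arms (76.3 ± 39.8, SD, n = 3). The windows made up 12.6% of the covered length and held 9.57% of the peaks of list 1 (8.75 to 10.5, a 95% Wilson interval as are the ranges after later shares). They held 3.31% in list 2 (3.01 to 3.64) and 4.51% in list 3 (4.07 to 4.99). The mean log2 ratio of the densities was -1.38 ± 0.84 (SD, n = 3), lower in 3 of 3 lists. The exact sign-flip permutation test over lists, two-sided, gave p = 0.25, the smallest that 3 lists allow. This holds for each of the 7 measures compared below, whose p adjusted over the 7 was also 0.25.

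Density rose with distance from the midpoint. Within 0.5 Mb, the lists had 19.4, 17.6 and 16.4 peaks per Mb (lists 1, 2 and 3). Just inside the window's edge, between 1 and 1.5 Mb, they had 39.6, 38.8 and 29.0, and just outside it, between 1.5 and 2 Mb, 44.2, 51.6 and 40.0. Beyond 4 Mb the values were 39.2, 130.8 and 76.4. List 1 had therefore reached its arm level at the edge of the window, whereas lists 2 and 3 went on rising for some Mb beyond it. Bins are not replicates and were not tested.

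**Figure D1:**
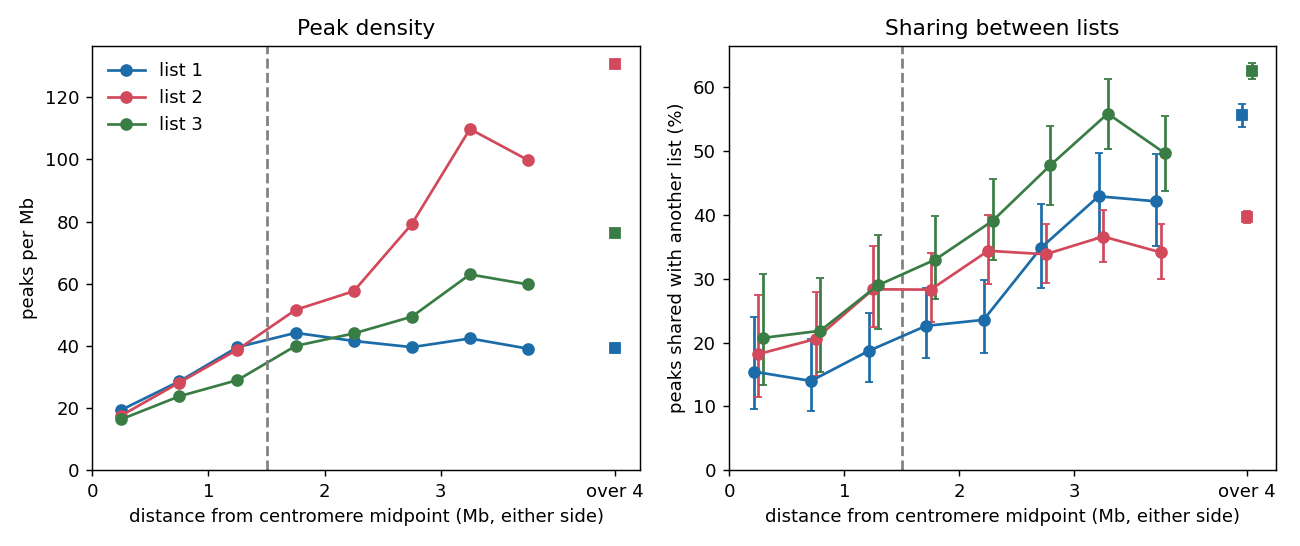
Peaks per Mb (left) and share of peaks that overlap a peak of another list (right, in %, with 95% Wilson intervals) by distance from the centromere midpoint, in bins of 0.5 Mb, for the 3 lists. Squares stand for all peaks beyond 4 Mb and the dashed line marks 1.5 Mb. Within 0.5 Mb the 3 lists lie between 16.4 and 19.4 peaks per Mb, and beyond 4 Mb between 39.2 and 130.8.

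Members were shorter than arm peaks in every list. The median length was 691 bp against 794.5 bp in list 1, 375 against 585 bp in list 2 and 444 against 539 bp in list 3. The interquartile range of the members was 581 to 902 bp, 312.5 to 503.5 bp and 355.2 to 563.8 bp (lists 1, 2 and 3). The mean log2 ratio of the medians was -0.37 ± 0.23 (SD, n = 3), lower in 3 of 3 lists (exact sign-flip permutation test, two-sided, p = 0.25). Just outside the window, between 1.5 and 2 Mb from the midpoint, the median length was 706, 450 and 403.5 bp (lists 1, 2 and 3). The mean difference from the arms was smaller among strong peaks. With peaks of 5-fold or more alone the mean log2 ratio was -0.11 ± 0.43 (exact sign-flip permutation p = 0.75). It was 0.36 in list 1, -0.50 in list 2 and -0.17 in list 3, so the lists then differed in direction. Few members of list 1 were that strong, as the 95th percentile of their fold enrichment was 3.60.

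Tags per kb of peak, the density of PIF1 reads within a peak, was slightly lower in the typical member. The medians were 172.7 around the centromeres and 191.1 on the arms in list 1. They were 110.4 and 139.4 in list 2, and 100.5 and 111.1 in list 3. The mean log2 ratio was -0.21 ± 0.11 (SD, n = 3), lower in 3 of 3 lists (exact sign-flip permutation test, two-sided, p = 0.25). Within 0.5 Mb of the midpoint the medians were 176.1, 107.9 and 113.4 (lists 1, 2 and 3), that of list 3 above the median of its arms. Between 1 and 1.5 Mb they were 171.6, 117.6 and 96.0, and just outside the window, between 1.5 and 2 Mb, 177, 113.3 and 100. Most members kept to a narrow range, with interquartile ranges of 163.3 to 184.0 (list 1), 100 to 130.7 (list 2) and 91.0 to 119.9 (list 3). A few did not, and the highest members reached 1403, 3139 and 2354 tags per kb. With means in place of medians the log2 ratio was -8.7e-04 ± 0.23 (SD, n = 3; exact sign-flip permutation p = 1). It was -0.20 in list 1, -0.05 in list 2 and 0.25 in list 3, so the lists then differed in direction. The mean difference in tags per kb over the lists thus rested on the measure of the middle.

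Fold enrichment over wild type, here and below the authors' own value for each peak, followed the same order. The median was 2.53 for members and 2.74 for arm peaks in list 1, 4.69 and 5.30 in list 2, and 3.49 and 3.87 in list 3. The mean log2 ratio was -0.15 ± 0.03 (SD, n = 3), lower in 3 of 3 lists (exact sign-flip permutation test, two-sided, p = 0.25). Just outside the window, between 1.5 and 2 Mb from the midpoint, the median was 2.48, 5.055 and 3.57 (lists 1, 2 and 3). Strong members were few. Of members, 31 (7.08%), 38 (8.98%) and 34 (9.83%) lay in the upper quartile of fold enrichment of lists 1, 2 and 3, against 26.9%, 25.5% and 25.7% of arm peaks. A cut of 500 tags per kb was made on unscaled counts. The arm medians were 191.1, 139.4 and 111.1 (lists 1, 2 and 3), so the cut was not equally extreme in each list. Above 500 tags per kb the order of members and arm peaks differed between lists. In list 1, 2 members (0.457%) and 25 arm peaks (0.604%) passed that value, in list 2 it was 9 (2.13%) and 70 (0.567%), and in list 3 it was 11 (3.18%) and 14 (0.191%). A block of ribosomal RNA genes on chromosome 3 held 7 of these members in list 2 and 7 in list 3. Without it 2 of 416 members of list 2 (0.481%) passed the value, below the arms, and 4 of 339 of list 3 (1.18%), above them. The block was singled out after its high values were seen, so leaving it out lowers the share of members by construction. Arm peaks were not filtered in the same way, and no conclusion is drawn from this recount.

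**Figure D2:**
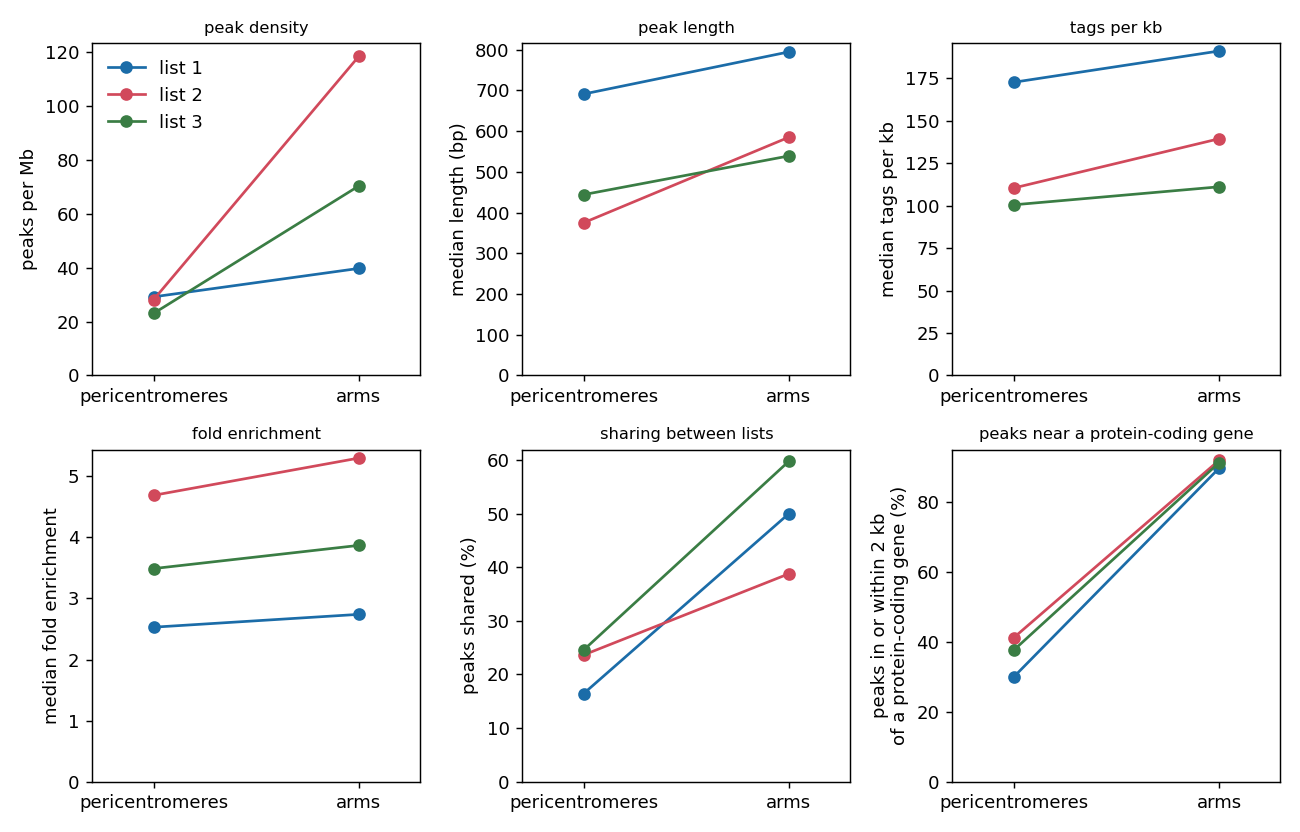
Values of each list around the centromeres and on the arms, for peaks per Mb, median length in bp, median tags per kb, median fold enrichment, the share of peaks shared with another list and the share in or within 2 kb of a protein-coding gene (both in %). Each line is 1 list. All lines rise from the pericentromeres to the arms, steeply for density in list 2 (28.2 to 118.6) and for gene neighbourhood (29.9 to 89.5% in list 1), and little for fold enrichment (2.53 to 2.74 in list 1).

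The medians, densities and shares did not come from 1 chromosome. In each of the 15 combinations of chromosome and list, density, median length, median tags per kb, median fold enrichment and the shared share were lower around the centromere than on the arms of the same chromosome. Median fold enrichment around the centromeres spanned 2.35 to 2.64 over the chromosomes of list 1, 4.63 to 4.89 over those of list 2 and 3.32 to 3.62 over those of list 3. Chromosome 1 had the lowest density, with 23.7, 19.7 and 19.3 peaks per Mb, and chromosome 2 the highest, with 33.7, 34.7 and 25.3, except that chromosome 4 had 26.7 in list 3.

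Few members were found again in another list. In list 1, 72 of 438 members overlapped a peak of list 2 or 3 by at least 1 bp (16.4%, 13.3 to 20.2), against 50.0% of arm peaks and 46.8% of the whole list. In list 2 it was 100 of 423 (23.6%, 19.8 to 27.9), against 38.8% on the arms and 38.3% overall. In list 3 it was 85 of 346 (24.6%, 20.3 to 29.4), against 59.8% on the arms and 58.2% overall. The share around the centromeres minus that on the arms was -33.6, -15.1 and -35.2 percentage points (mean -28.0 ± 11.1, SD, n = 3; lower in 3 of 3 lists; exact sign-flip permutation test, two-sided, p = 0.25). Between 1 and 1.5 Mb from the midpoint the share was 18.7%, 28.35% and 29.0% (lists 1, 2 and 3). Just outside the window, between 1.5 and 2 Mb, it was 22.6%, 28.29% and 33.0%, and beyond 4 Mb 55.6%, 39.7% and 62.5%. A low share was thus not confined to the windows. Beside these shares stand the densities of the other lists, which were also lower around the centromeres, and the part of density in the sharing was not tested.

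Sharing with both other lists held for 15 members of list 1 (3.42%), 16 of list 2 (3.78%) and 15 of list 3 (4.34%). On the arms it held for 33.3%, 11.5% and 19.2%, and in the whole lists for 30.4%, 11.3% and 18.5%. Of the members of list 1, 11.6% met a peak of list 2 and 8.22% one of list 3, and of its arm peaks 46.3% and 37.0% did so.

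Matching on peak strength changed the difference in sharing to a different degree in each list. Members were weaker, to a different degree in each list. In the lowest quartile of score, the peak caller's measure of significance, lay 32.65%, 49.6% and 39.9% of them (lists 1, 2 and 3). Within quartiles of score the members of list 2 were shared less often than arm peaks in 2 quartiles and more often in 2. The shares were 13.3% against 14.7% in the lowest quartile, 22.8% against 22.5% in the second and 28.1% against 38.1% in the third. In the highest it was 84.8% of 33 members against 78.0% of arm peaks. In list 1 the difference remained in every quartile, and in the highest it was 25.5% of 47 members against 78.6% of arm peaks. In list 3 it also remained, with 66.7% of 30 members against 93.8% in the highest quartile. Within quartiles of fold enrichment, members were shared less often than arm peaks in every quartile of every list. In list 2 these shares were 19.0% against 20.25% in the lowest quartile and 63.2% of 38 members against 73.2% in the highest. Averaged over quartiles of score the difference was -19.5 ± 16.2 percentage points (SD, n = 3; exact sign-flip permutation test, two-sided, p = 0.25). Averaged over quartiles of length it was -21.0 ± 18.6 and no longer had the same sign in all lists (exact sign-flip permutation p = 0.5).

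**Figure D3:**
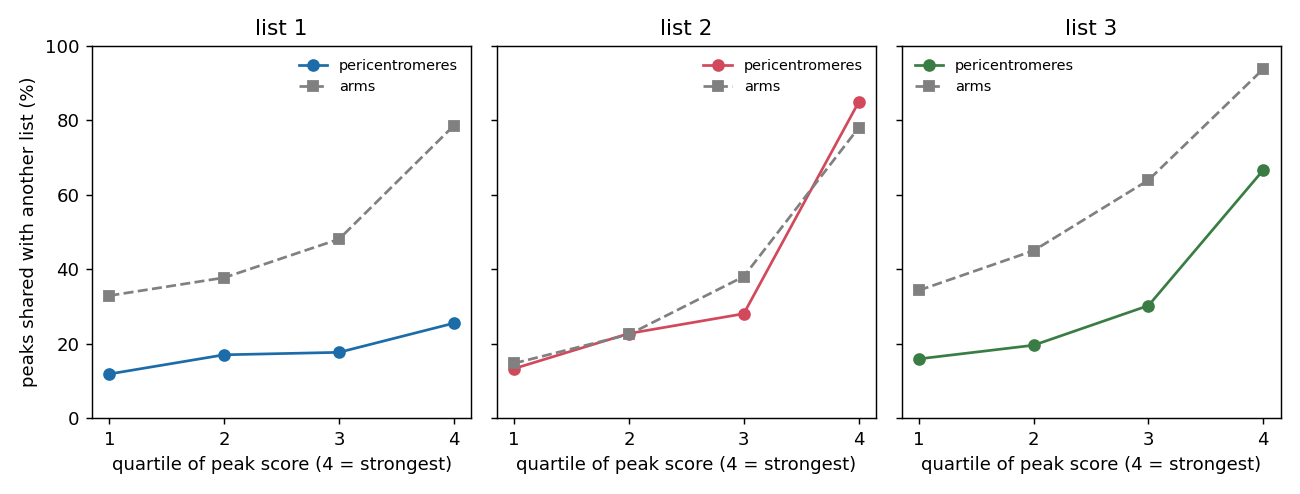
Share of peaks that overlap a peak of another list (in %) by quartile of the score of that list, for members around the centromeres (circles) and arm peaks (squares, dashed). In list 2 the lines cross, while in lists 1 and 3 the members lie below the arms in all quartiles (25.5% against 78.6% and 66.7% against 93.8% in the highest).

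The neighbourhood of the members was poor in genes. In or within 2000 bp of a protein-coding gene lay 29.9%, 41.1% and 37.6% of members (lists 1, 2 and 3), against 89.5%, 91.8% and 91.1% of arm peaks (mean difference -54.6 ± 4.58 percentage points, SD, n = 3; exact sign-flip permutation test, two-sided, p = 0.25). The bases of the windows themselves lay in that neighbourhood at 23.3%, and those of the arms at 90.4%. Members were thus nearer to genes than the windows' own bases in all 3 lists, which was not tested. Inside a protein-coding gene lay 14.8%, 20.6% and 19.1% of members, with 9.70% of the windows' bases in such genes. On the arms 58.5%, 42.9% and 44.1% of peaks lay inside, with 60.5% of the bases (mean difference between the parts -30.3 ± 11.6 percentage points, SD, n = 3; exact sign-flip permutation p = 0.25).

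Many members lay in annotated pseudogenes, a class that in this gene table holds many transposon-derived genes. List 1 had 222 such members (50.7%, 46.0 to 55.3). List 2 had 157 (37.1%, 32.7 to 41.8), and list 3 had 99 (28.6%, 24.1 to 33.6). Pseudogenes covered 37.4% of the windows' bases, so list 1 lay above that level, list 2 at it and list 3 below it. On the arms, where they covered 4.66% of the bases, 6.35%, 1.32% and 1.75% of peaks lay in one. Of members shared between lists, 37.5%, 20% and 14.1% lay in a pseudogene (lists 1, 2 and 3), and of members not shared 53.3%, 42.4% and 33.3%. In or within 2000 bp of a protein-coding gene lay 45.8%, 57.0% and 55.3% of shared members, and 26.8%, 36.2% and 31.8% of the others. The lists hold the shared regions in common, so their like direction is a description and was not tested.

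Merging overlapping peaks of the 3 lists, also those joined only through another peak, gave 1070 regions around the centromeres. Of these, 120 held peaks of at least 2 lists (11.2%, 9.46 to 13.3) and 16 held peaks of all 3 (1.5%, 0.923 to 2.42), while among all merged regions the shares were 26.4% and 7.56%. The 120 repeated regions numbered 8 per Mb, against 45.4 on the arms, and were 2.48% of all repeated regions. Of the repeated regions around the centromeres, 40.0% came from lists 2 and 3, 29.2% from lists 1 and 2, 17.5% from lists 1 and 3, and 13.3% from all 3. On the arms these shares were 56.9%, 10.9%, 3.09% and 29.1%. Chromosomes 1 to 5 held 16, 27, 27, 28 and 22 repeated regions, and 2, 4, 2, 6 and 2 regions of all 3 lists. Near genes, 62 of the 120 (51.7%) lay in or within 2000 bp of a protein-coding gene, against 91.8% on the arms. Of the 776 protein-coding genes of the windows, 70 had a repeated region inside or within 2000 bp (9.02%, 7.20 to 11.2), against 23.8% of all protein-coding genes.

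Of the 16 regions of all 3 lists, 13 (81.2%) lay between 1 and 1.5 Mb from the midpoint, 1 between 0.5 and 1 Mb and 2 nearer. The same outer bin held 43.3% of all merged regions of the windows and 50% of the repeated ones, and the difference was not tested. In or within 2000 bp of a protein-coding gene lay 12 of the 16. Ranked by their mean percentile of fold enrichment over the lists, the 16 had a median of 78.7, and the 1374 such regions of the arms 84.1. Around a centromere lay 16 of all 1390 such regions of the genome and, at a like share, 1 of the 100 highest.

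That region, the strongest, lay at chromosome 5, 10296676 to 10297564 (TAIR10), near the outer edge of the window. It lay within 2000 bp of AT5G28300, which encodes a trihelix factor of the GT-2 type, and ranked 36 of the 1390 regions of all 3 lists. Its peaks had 318, 455 and 174 tags and fold enrichments of 8.5, 45.29 and 14.17 in lists 1, 2 and 3. These were above 99.1%, 99.9% and 98.7% of the peaks of each list or equal to them. The second lay at chromosome 4, 2672701 to 2673802, within 2000 bp of PSBQ-2, which encodes a subunit of the oxygen-evolving complex of photosystem II, and of ATK5, a kinesin gene. Its peaks had 320, 255 and 165 tags and fold enrichments of 10.47, 34.53 and 7.86. The third lay only 0.12 Mb from the midpoint of chromosome 4, at 4069880 to 4071461, beside AT4G06744. It had 395, 286 and 128 tags and fold enrichments of 5.57, 14.54 and 13.62. The lowest of the 9 peaks of these 3 regions stood at the 93.2nd percentile of its list.

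Named genes also stood next to lower-ranked regions of all 3 lists. ERD5, for the proline dehydrogenase that breaks down proline, had a region inside the gene at chromosome 3, 12450459 to 12452131, with fold enrichments of 2.39, 15.69 and 4.25. There the peaks of lists 1 and 3 each overlapped that of list 2 but not each other. ERD5 was also the nearest gene, beyond 2000 bp, to a region at 12453547 to 12454350 with 4.57, 10.25 and 5.48. RIPK, for a kinase of the immune response, lay within 2000 bp of a region at chromosome 2, 2289383 to 2289992 (4.26, 11.21 and 4.99). GRF6, a growth-regulating factor gene, lay beside a region at chromosome 2, 2424792 to 2425438, the only 1 of the 16 whose highest fold enrichment was in list 1 (6.02, 5.69 and 5.74). These values stood at the 95.9th, 57.5th and 84.5th percentiles of lists 1, 2 and 3.

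FBS3, an F-box gene, had a region inside it at chromosome 4, 2566506 to 2567757 (3.53, 7.55 and 5.46). MYB74, for an R2R3-type MYB factor, lay beside a region at chromosome 4, 2619896 to 2621060, with 4.61, 13.49 and 3.01, the last at the 16.6th percentile of list 3. ORP1C, for an oxysterol-binding protein relative, lay beside a region at chromosome 4, 5169117 to 5169948 (3.19, 6.8 and 4.1). The genes AT5G28237, AT4G08370 and AT2G05920 stood beside or around 3 more regions, with fold enrichments between 2.81 and 17.82. The 3 weakest of the 16 had no protein-coding gene within 2000 bp, with AT2G08986, AT1G36940 and AT1G42080 nearest, and fold enrichments between 2.45 and 8.8. Of these, that nearest to AT2G08986 lay 0.035 Mb from the midpoint of chromosome 2, at 3635031 to 3635591, with 2.67, 5.45 and 4.2.

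The 4 strongest regions found in 2 lists were all of lists 2 and 3. That at chromosome 1, 15880207 to 15880807, was nearest to AT1G42430, beyond 2000 bp, with fold enrichments of 16.67 and 6.88. That at chromosome 1, 14165087 to 14165767, was nearest to NIA2, a nitrate reductase gene, also beyond 2000 bp (13.43 and 5.6). AN3, for a transcriptional coactivator that works with growth-regulating factors in leaf growth, had a region inside it at chromosome 5, 10649282 to 10650272 (9.58 and 6.89). The fourth lay inside AT2G05786 and within 2000 bp of AT2G05790, at chromosome 2, 2198035 to 2198717 (10.98 and 6.13). Of 162 listed genes of light signalling, hormone pathways, pigment synthesis and the clock, 153 matched the gene table and 0 of these lay in the windows, which hold 2.83% of all protein-coding genes. The other 9 were not placed.

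**Figure D4:**
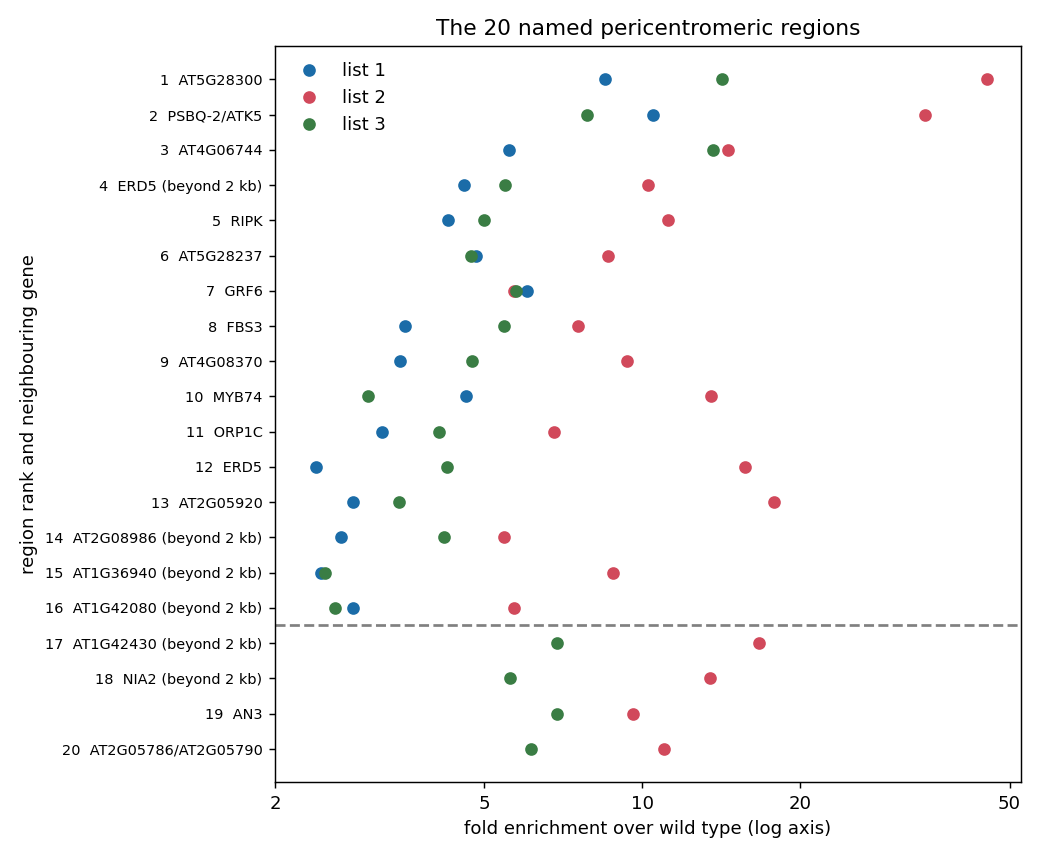
Fold enrichment (log axis) in lists 1, 2 and 3 at the 16 regions of all 3 lists and, below the dashed line, the 4 strongest of 2 lists, ordered by mean percentile and labelled by the protein-coding genes within 2 kb or, where none is, the nearest. List 2 lies highest in all but the region beside GRF6, and the region beside AT5G28300 reaches 45.29. Fold enrichment was also higher in list 2 on the arms, with medians of 2.74, 5.30 and 3.87 (lists 1, 2 and 3).

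The highest tags per kb of lists 2 and 3 lay in 1 place, a block of ribosomal RNA genes on chromosome 3. Ribosomal RNA genes occur in long arrays of near-identical copies, of which the assembly holds few. The block held 7 peaks in list 2 and 7 in list 3 and none in list 1, from 14195518 to 14202933. It was singled out after its values were seen, and took the peaks of chromosome 3 within 3000 bp of an annotated ribosomal RNA gene. Most of its peaks lay in AT3G06365 and AT3G41761, which are annotated as RNA genes of other classes. Of the 10 peaks with the highest tags per kb, the block held 7 in list 2 and 7 in list 3. The highest, at 14201378 to 14201823 inside AT3G06365, had 1400 tags (3139 per kb) and a fold enrichment of 2.17 in list 2, and 1050 tags (2354 per kb) and 1.62 in list 3. The next of list 2, at 14201999 to 14202472 in the same gene, had 2371 tags per kb and 2.64. The next of list 3, at 14195518 to 14196169 in AT3G41761, had 1865 and 1.85. Fold enrichment was thus low where the density of tags was highest.

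The 7 peaks had the same start and end in lists 2 and 3 to the base. In the whole series 9 intervals were identical in 2 lists. All 9 lay around centromeres, 7 of them in this block, 1 at chromosome 3, 13591580 to 13592673 (1157 and 1047 tags per kb in lists 2 and 3), and 1 at chromosome 4, 3987398 to 3987842 (368.5 and 323.6). Of arm peaks, 0 were identical between lists. Within the block 4 peaks were 239 bp long, among them 2 in AT3G41768, a ribosomal RNA gene. In list 3 all 4 had 282 tags, and in list 2 there were 376, 376, 376 and 371. The peak caller kept at most 3 tags per position of PIF1 library 3 and 4 of library 2, per the file headers. Divided by that limit, 282 and 376 both give 94. In 6 of the 7 intervals the tags of list 2 over those of list 3 lay within 0.02 of 1.33, the ratio of the limits. For wild type the limit was 4, 3 and 3 tags in lists 1, 2 and 3, and for PIF1 it was 3, 4 and 3. What part these limits have in the peaks was not tested.

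**Figure D5:**
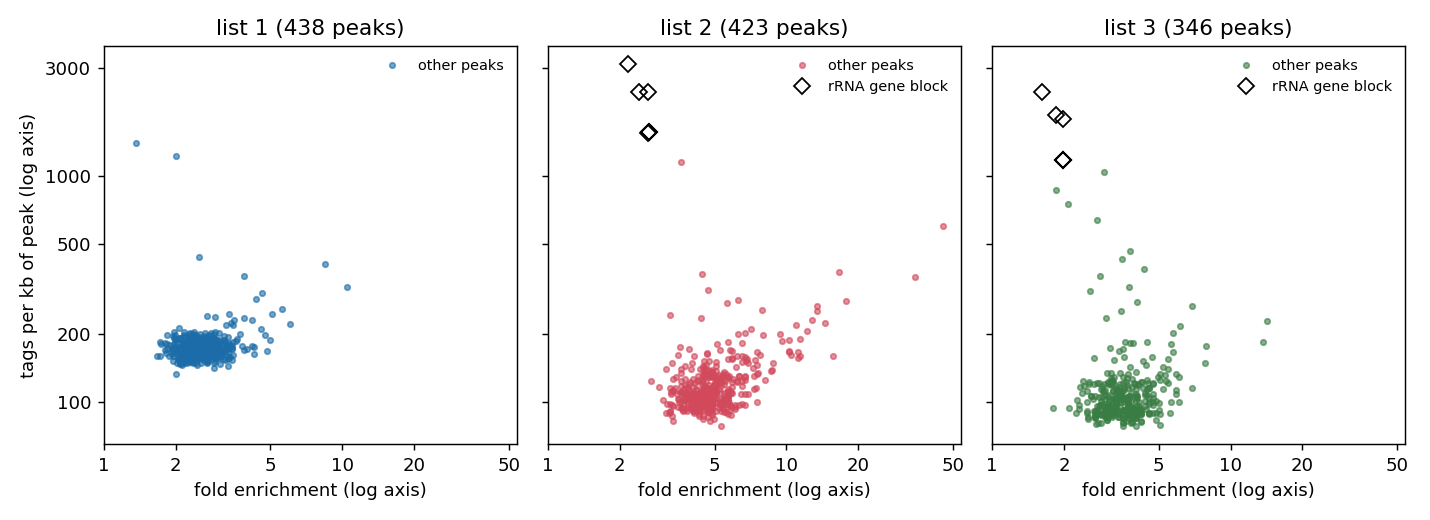
Tags per kb against fold enrichment (both log axes) for every member of each list, with the peaks of the ribosomal RNA gene block as open diamonds, where identical peaks coincide. The block stands at 1180 to 3139 tags per kb with fold enrichments of 1.62 to 2.66, and the members with the highest fold enrichment (10.47, 45.29 and 14.17) have 321.6, 603.4 and 228.6 tags per kb.

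List 1 had its highest tags per kb elsewhere. A peak at chromosome 2, 3394701 to 3402566, was 7866 bp long, the longest of all peaks of the 3 lists, with 11034 tags (1403 per kb). Its fold enrichment, 1.36, was the lowest of the list. Its summit lay in AT2G07786, a transcribed pseudogene. The pericentromere of chromosome 2 is known to hold an inserted copy of mitochondrial DNA, and whether this peak lies in it was not tested. Neither of the other lists had a peak that overlapped it. The second, at chromosome 1, 15085572 to 15086044 in AT1G40104, had 583 tags (1233 per kb) and a fold enrichment of 2.01, and overlapped no peak of another list. Elsewhere in the same gene, at 15081875 to 15082380, list 3 had a peak with 865.6 tags per kb and a fold enrichment of 1.86. Without the ribosomal block 113 repeated regions remained, and the shared share was 20.6% around the centromeres against 49.5% on the arms as a mean over the lists.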

How the data were processed

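The authors called peaks library by library with MACS 1.4.1, each PIF1 library against 1 of wild type, per the file headers, with a p cutoff of 1e-05 and an effective genome size of 150000000 bp. The submitters' processing notes also name CASAVA 1.8.0, Bowtie 0.12.7 and TAIR10. The deposited lists give unscaled tag counts of the PIF1 library, a score (10 times the negative log10 of p), a fold enrichment (a ratio to the local wild-type background after scaling) and an FDR in percent.

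Tags per kb, overlap (at least 1 bp) and merged regions were computed with Python 3.11.15 and pandas 2.3.3. The largest peak end stood for chromosome length. Gene names and neighbours were taken from a TAIR10.1 gene table, whose coordinates are not given. No genome sequence was used. The list was the replicate, paired between genome parts, in an exact sign-flip permutation test. Peaks are not replicates, Wilson intervals cover counting error only, and the spread between libraries may be partly technical. Members, lists and tests were chosen with earlier results of these data known. The genes named are those of 20 regions, ordered by the number of lists and then by mean percentile of fold, the 2 members per list with the highest tags per kb, and listed genes in the windows. The overlap and permutation steps were tested on simulated data.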

Additional observations from a re-analysis of the deposited data

How the results depend on the processing

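The sign of the mean over lists was kept for each of the 7 measures under every alternative run, which changed the window, the definition of arms, the peak position, the thresholds, the weighting of chromosomes, the gene window, the overlap rule and the lists used, and, chosen after the data were seen, left out the ribosomal RNA block. None of these tests could pass 0.05 with 3 lists. With all 3 lists in use, 4 alternatives had 2 of 3 lists lower in place of 3, namely length with peaks of 5-fold or more and with scores of 100 or more, tags per kb with means, and sharing within quartiles of length. The mean log2 ratio ranged from -3.04 to -1.03 for density, from -0.27 to -8.7e-04 for tags per kb, from -0.46 to -0.11 for length and from -0.28 to -0.13 for fold enrichment. The difference in percentage points ranged from -34.3 to -17.5 for sharing, from -34.4 to -11.2 for peaks inside genes and from -64.2 to -27.4 for peaks near genes. The tests were paired within a list. With no replicate block the mean differences are the same by construction (density -1.38, tags per kb -0.21, length -0.37, fold enrichment -0.15, sharing -28.0, inside genes -30.3 and near genes -54.6), and the exact permutation p was 0.1 for density, sharing and both gene measures, the smallest it allows, 0.3 for length, 0.5 for tags per kb and 0.7 for fold enrichment. The mean density ratio was -1.84 without list 1 and -1.03 without list 2, and that of length -0.46 and -0.24.

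The count of 120 repeated regions moved to 60 with windows of 1 Mb, 200 with 2 Mb, 16 for all 3 lists and 27 with scores of 100 or more. Leaving out 1 list gave 36 to 64 (without replicate 2 it was 36, without replicate 3 it was 51 and without replicate 1 it was 64).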
